A study of Mus musculus with 2 samples.

Results

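Gzmk-positive CD8 T cells without Havcr2 were 230 of the 12016 cell barcodes of a mouse melanoma capture, and 230 of its 3087 gated CD8 T cells (7.45%, exact binomial 95% interval 6.55 to 8.43). The cells were chosen by their own measured counts: at least 5 counts of Gzmk and of Cd8a or Cd8b1, under 5 of Tcf7, Havcr2, Cd4, Csf1r, Adgre1 and each of Klra1, Klra6, Klra7 and Klra9, under 10 of Mlana, and not both Mki67 and Top2a at 5 or more. A barcode also needed at least 500 genes and at most 25% mitochondrial counts. The levels of these genes in the cells therefore describe the choice and are no result. The other gated CD8 cells served for comparison: 534 with Tcf7 and without Havcr2 (Tcf7-positive cells), 789 with Havcr2 and without Tcf7 (Havcr2-positive cells) and 1518 without Gzmk, Tcf7 or Havcr2 (Gzmk-negative cells). A further 16 cells had both Tcf7 and Havcr2 and were not compared.

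The cells came from subcutaneous B16F10 melanomas of mice, taken 14 days after transplantation and enriched for CD3-bearing cells on magnetic columns after a Percoll step. Wild-type T cells and T cells with deletion of NR4a1/2 were marked with 6 hashtag antibodies, pooled and loaded together, about 20000 cells, on 1 BD Rhapsody array, a microwell device that pairs each cell with a barcoded bead. The cDNA was amplified by TAS-Seq. The labels do not say which hashtag marks which genotype, how many mice stand behind a hashtag, or which Cre driver or cell type carried the deletion, so genotypes were not compared and the cells described here mix both. With 1 capture there is no replicate of a condition, no p-value is given, and intervals on shares of cells cover counting error only.

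Granzyme K is a trypsin-like serine protease stored in cytotoxic granules, and its gene lies beside that of granzyme A, the other tryptase of the family, while granzyme B is a caspase-cleaving protease encoded elsewhere. Gzmk-expressing CD8 T cells are known from tumours and inflamed tissue as effector memory-like cells. They are commonly placed between naive or stem-like cells, which carry the transcription factor TCF1 (gene Tcf7), and terminally exhausted cells, which carry TIM-3 (gene Havcr2). Eomes is a T-box transcription factor of memory and exhausted CD8 cells, and Itga4 encodes integrin alpha 4, which pairs with integrin beta 1 or beta 7 in homing to inflamed tissue and gut.

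In the GENCODE vM21 annotation of GRCm38, Gzmk spans chr13:113171608-113225908 and Gzma chr13:113093825-113100981, both on the minus strand with 70626 bases between them. Gzmb lies on the minus strand at chr14:56258838-56262260. Because Gzmk chose the cells, Gzma was called higher in them than in each comparison group, and Gzmb was common in the Havcr2-positive and Gzmk-negative cells too, the 250 bases before the RefSeq start of each (GRCm38.p6, minus strand, 5′ to 3′) are shown, at chr13:113180966-113181215, chr13:113100982-113101231 and chr14:56262335-56262584. Capitals mark the letters GTGTGA (the core of T-box sites) and TGTGGT (the core of RUNX sites), on either strand as TCACAC and ACCACA.
Gzmk: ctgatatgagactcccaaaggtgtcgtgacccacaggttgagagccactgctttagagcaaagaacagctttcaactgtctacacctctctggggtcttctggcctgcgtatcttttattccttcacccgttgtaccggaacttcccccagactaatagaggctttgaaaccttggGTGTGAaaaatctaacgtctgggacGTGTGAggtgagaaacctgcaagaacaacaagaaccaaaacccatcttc
Gzma: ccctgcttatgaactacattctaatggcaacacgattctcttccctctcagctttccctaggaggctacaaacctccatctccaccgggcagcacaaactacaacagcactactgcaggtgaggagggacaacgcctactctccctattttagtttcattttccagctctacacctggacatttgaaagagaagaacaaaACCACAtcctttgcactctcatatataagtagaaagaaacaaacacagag
Gzmb: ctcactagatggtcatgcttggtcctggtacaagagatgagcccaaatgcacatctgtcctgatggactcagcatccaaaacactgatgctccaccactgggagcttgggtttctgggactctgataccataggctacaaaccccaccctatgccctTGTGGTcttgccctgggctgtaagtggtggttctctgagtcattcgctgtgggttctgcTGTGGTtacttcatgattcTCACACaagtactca

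The Gzmk window lies inside the longer Gzmk gene of GENCODE and overlaps none of its exons. It held 2 T-box cores and 0 RUNX cores, the Gzma window 0 and 1, and the Gzmb window 1 and 2. Of 32851 RefSeq promoter windows of the same 250 bases, 12.3% held at least 1 T-box core and 14.05% at least 1 RUNX core. The matches describe letters in these windows and no binding was measured.

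Total counts per cell had a median of 27166 in the Gzmk-positive cells (4815 to 115258), 21631 in the Tcf7-positive, 33809 in the Havcr2-positive and 19250 in the Gzmk-negative cells. Because depth differed, shares of cells with a gene are given below at equal depth, after each cell was thinned to 10000 counts, a gene being found at 2 or more of them. This kept 218, 502, 776 and 1289 cells of these groups. Levels are CPM, the summed counts of a gene in a group scaled to the group's total. Calls rest on the log2 ratio of 2 levels with 5 CPM added to each: a ratio of at least 1 in size counted, provided hashtags A0301 and A0306, which had at least 20 cells in both groups, gave the same sign. Genes found in under 5% of cells, averaged over both groups, and the genes of the choice were not examined. A gene rare in 1 group could thus pass through the other, where it was higher, and the counts of calls include such genes. At 5 counts, Entpd1 was found in 0.562% of Tcf7-positive cells, S1pr1 in 1.39% of Havcr2-positive cells and Ccr7 in 4.78% of Gzmk-positive cells. Their calls in these comparisons carry no weight beyond the levels given.

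Gzmk counts in the chosen cells ran from 5 to 67 with a median of 11 and quartiles of 7 and 16. The 66 cells just inside the threshold, with 5 to 7 counts, and the 145 just outside, with 2 to 4 counts, had similar depths (medians 21355 and 22212). Gzma was found at equal depth in 20.7% of the former and 19.0% of the latter, and Eomes in 19.0% and 13.9%. Prf1, the pore-forming perforin, was found in 20.7% of the cells just inside (interval 11.2 to 33.4) and 43.8% of those just outside (35.3 to 52.5). Cells with no Gzmk count had Gzma in 7.43% and Eomes in 6.70%, so the threshold cut a gradient of these genes.

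**Figure D1:**
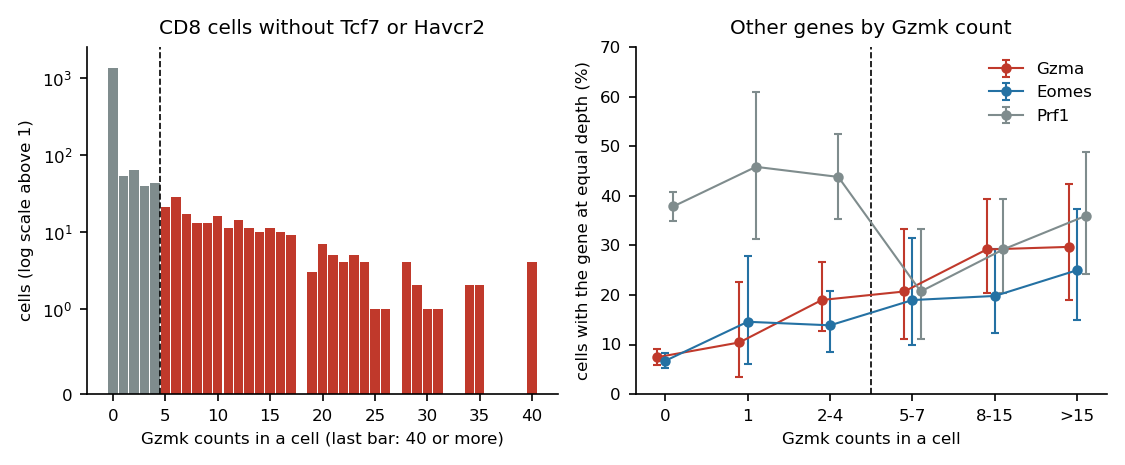
Left, number of CD8 cells without Tcf7 or Havcr2 (y axis, log scale above 1) by their Gzmk count (x axis), with the chosen cells in red right of the dashed threshold. Right, share of cells with Gzma, Eomes or Prf1 at 10000 counts per cell (y axis, percent, exact 95% intervals) by Gzmk count; Gzma runs from 7.43% at 0 counts to 29.7% above 15, with overlapping intervals on the 2 sides of the threshold.

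The chosen cells were present under every hashtag listed in the labels. They made up 6.40% of CD8 cells called for A0301 (32 of 500), 4.44% for A0302 (4 of 90), 4.80% for A0303 (6 of 125), 6.47% for A0304 (11 of 170), 5.15% for A0305 (10 of 194) and 7.39% for A0306 (21 of 284). The intervals of all 6 shares overlapped, the lowest and highest being 1.22 to 11.0 for A0302 and 4.64 to 11.1 for A0306. Of the 230 cells, 84 could be called for 1 of these hashtags (36.5%), against 1363 of the 3087 CD8 cells (44.2%), and 4 had support for 2 hashtags.

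**Figure D2:**
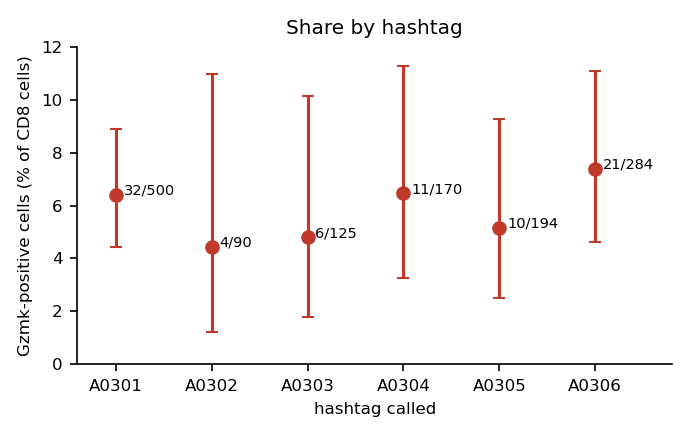
Gzmk-positive cells as a percentage of the gated CD8 cells called for each hashtag (y axis), with exact 95% intervals and the cell counts beside each point. The shares lie between 4.44% and 7.39% and their intervals overlap.

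Of the 3 other proposed markers of these cells, Gzma set them apart from each comparison group, Eomes from those without Tcf7, and Itga4 from none by the call rule. Gzma stood at 812 CPM in the Gzmk-positive cells, 173 in the Tcf7-positive, 89.7 in the Havcr2-positive and 285 in the Gzmk-negative cells. It was found in 27.1% of the Gzmk-positive cells (interval 21.3 to 33.5) and in 4.64% to 8.77% of the other groups. Its log2 ratio was 2.20, 3.11 and 1.49 over the Tcf7-positive, Havcr2-positive and Gzmk-negative cells, and each was called. Hashtag A0306 gave almost no difference from the Tcf7-positive cells, a log2 ratio of 0.003 against 3.65 in A0301. Against the Havcr2-positive cells A0301 gave 2.64 and A0306 2.49, and A0305, with 10 Gzmk-positive cells, gave -0.09.

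Eomes stood at 128 CPM in the Gzmk-positive cells, 101 in the Tcf7-positive, 39.6 in the Havcr2-positive and 50.6 in the Gzmk-negative cells. It was called higher than in the Havcr2-positive (log2 1.58) and Gzmk-negative cells (1.26), and was 0.33 over the Tcf7-positive cells, which was not called. Itga4 was found in 62.8% of the Gzmk-positive cells (56.1 to 69.3), 51.6% of the Tcf7-positive (47.1 to 56.0), 51.5% of the Havcr2-positive (48.0 to 55.1) and 44.8% of the Gzmk-negative cells (42.0 to 47.5). Its log2 ratios of 0.30, 0.69 and 0.52 did not reach the call. The interval for the Gzmk-positive cells lies just above those of the other groups and hardly apart from that of the Tcf7-positive cells, so Itga4 marks a small difference in share. In 1054 melanoma barcodes, with a median of 163268 counts, at least 5 counts of Gzmk were found in 0.285% and of Gzma in 0.380%.

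**Figure D3:**
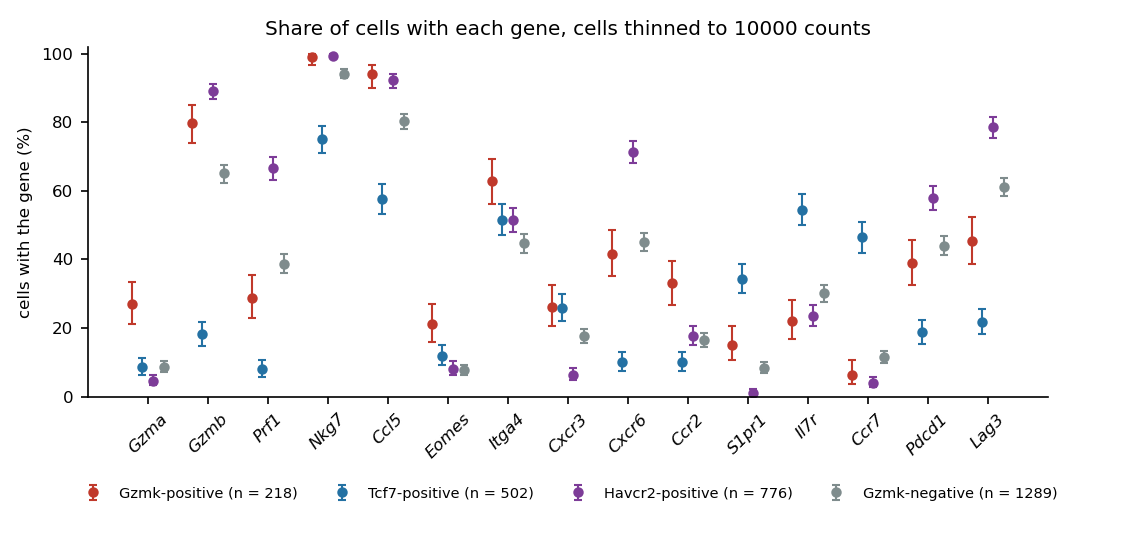
Share of cells with each of 15 genes at 10000 counts per cell (y axis, percent, exact 95% intervals) in the 4 groups of CD8 cells (colours, cell numbers in the legend). Gzma is highest in the Gzmk-positive cells at 27.1%, Gzmb stands at 79.8% there against 18.1% in the Tcf7-positive cells, and Ccr7 is highest in the Tcf7-positive cells.

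Against the Tcf7-positive cells, the Gzmk-positive cells carried a cytotoxic programme. Of 5579 genes examined, 133 were called higher (2.38%) and 94 lower (1.68%). In the list of granzymes and killing genes, 8 of 12 examined members (20 listed) were higher and 0 lower, with a median log2 ratio of 1.25 beside 0.07 over all examined genes. Gzmb stood at 2458 CPM against 257 and was found in 79.8% against 18.1% of cells, a log2 ratio of 3.23 with 3.11 in A0301 and 3.42 in A0306. Prf1 stood at 282 CPM against 42.9 (log2 2.59). Fasl, the death ligand (1.43), Nkg7, a granule membrane protein (1.14), Ifng, interferon gamma (1.495), and the granzyme inhibitors Serpinb9 (1.36) and Serpinb6b (1.14) were also higher. The ratio of Serpinb9 was -0.09 in A0304 and that of Serpinb6b -0.37 in A0305. Against the Tcf7-positive cells with Pdcd1, Nkg7 (0.84) and Serpinb6b (0.80) fell short of the call. Of the chemokines, Ccl5 (1.56) and Ccl3 (2.31) were higher and Xcl1 lower (-2.52), though Xcl1 passed the filter on detection through the Tcf7-positive cells.

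Of the killing genes called against Tcf7-positive cells, Prf1 and Ifng were in turn lower than in the Havcr2-positive cells. Of 6208 genes examined there, 51 were called higher (0.822%) and 63 lower (1.01%) in the Gzmk-positive cells. Prf1 was lower (282 against 683 CPM, log2 -1.26), found in 28.9% (23.0 to 35.4) against 66.6% (63.2 to 69.9) of cells. Ifng was lower too (-1.39), with 1.01 in A0304, which had 11 Gzmk-positive cells. Gzmf, a granzyme of strongly activated cells, stood at 85.3 against 415 CPM but passed the filter on detection through the Havcr2-positive cells, so its call carries no weight. Gzma was the 1 higher gene, beside 3 lower with Gzmf, among 14 examined of this list, whose median was -0.31 beside 0.03 over all examined genes. Gzmb stood at 2458 against 3424 CPM, a log2 ratio of -0.48, and was not called. Of the 5 chemokines examined, the inflammatory chemokines Ccl3 (262 against 1142 CPM, log2 -2.10) and Ccl4 (285 against 1024, -1.83) were lower, Ccl4 with 0.60 in A0304, and the call of Ccl9 came through the filter in the same way as that of Gzmf, while Ccl5 did not differ by the call (-0.14). Spp1, which encodes osteopontin, had the lowest ratio among the genes that the naming rule picked (83.8 against 493 CPM, -2.49), with -5.16 in A0301 and -0.47 in A0306.

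Several receptors for homing and tissue exit differed between the Gzmk-positive cells and the Tcf7-positive or the Havcr2-positive cells. S1pr1, the sphingosine phosphate receptor that guides cells out of tissue, stood at 71.1 CPM in the Gzmk-positive cells, 209 in the Tcf7-positive and 5.25 in the Havcr2-positive cells, and was found in 15.1%, 34.3% and 1.16% of them. Cxcr3, the receptor for interferon-induced chemokines, was found in 26.1% of the Gzmk-positive, 25.9% of the Tcf7-positive and 6.31% of the Havcr2-positive cells, a log2 ratio of 2.23 over the last. In A0305, with 10 Gzmk-positive cells of which 0 had Cxcr3 or S1pr1 at 5 counts, the ratios to Havcr2-positive cells were -2.94 and -0.11, and that of Cxcr4 was -1.06. Cxcr4 (1.61), the chemokine receptor for CXCL12, and Gpr183 (1.53), the oxysterol receptor, were also called higher than in Havcr2-positive cells. This gave 4 of the 10 examined receptors higher and 0 lower, with a median of 0.97. The 4 include S1pr1, found at 5 counts in 1.39% of Havcr2-positive cells, whose call carries no weight. Against the Gzmk-negative cells 0 of 10 examined receptors were called. The log2 ratios there were 0.46 for S1pr1, 0.62 for Cxcr3, 0.26 for Cxcr4 and 0.31 for Gpr183, so these levels do not set Gzmk-positive cells apart from that group.

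Against the Tcf7-positive cells, 3 of 10 examined receptors were higher and 2 lower. Cxcr6, a receptor of tissue-resident and tumour-infiltrating T cells, stood at 334 against 52.7 CPM (log2 2.55) and was found in 41.7% against 9.96% of cells. It was 542 CPM in Havcr2-positive cells, a ratio of -0.69 that was not called. Ccr2 (1.53), a receptor for inflammatory chemokines, was higher as well, with -0.55 in A0305. Ccr2 was found in 33.0% of the Gzmk-positive cells (26.8 to 39.7) and in 17.8% of the Havcr2-positive cells (15.2 to 20.7), with a log2 ratio of 0.97 just short of the call. Ccr7, the lymph node homing receptor, was lower than in Tcf7-positive cells (49.95 against 563 CPM, -3.37), and so was S1pr1 (-1.49). Among the integrins, Itgb7 was higher than in Havcr2-positive cells (142 against 46.9 CPM, 1.502), and the other 7 integrin and adhesion genes examined there were not called.

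Genes of naive and memory cells were lower than in the Tcf7-positive cells. Of 19 examined genes of the progenitor and memory list, 0 were higher and 11 lower, with a median of -1.35. Besides Ccr7, S1pr1 and Xcl1 they included Il7r, the interleukin 7 receptor (173 against 563 CPM, -1.67), Slamf6 (-1.52), Dapl1 (-3.64), the quiescence factor Klf2 (-2.13), the TCF1 partner Lef1 (-1.30), Bach2 (-2.07) and Satb1 (-1.35). Dapl1, Bach2 and Xcl1 passed the filter on detection in this comparison alone, through the Tcf7-positive cells, so their calls carry no weight. The call of Ccr7, found at 5 counts in 4.78% of Gzmk-positive cells, carries none either. Against the Havcr2-positive cells 6 of 15 examined genes of this list were higher and 0 lower. They were S1pr1 (2.89), Klf2 (1.53), Lef1 (1.40), Slamf6 (1.67), Cd7 (1.28) and Bcl2, an inhibitor of cell death (1.05). S1pr1 passed the filter on detection through the Gzmk-positive cells, so its call carries no weight. Klf2 and Slamf6 stood at 13.5 and 11.2 CPM in the Havcr2-positive cells. Of 27 transcription factors examined, Eomes, Klf2, Klf3 (2.53), Lef1 and Myb (1.34) were higher than in Havcr2-positive cells, and Id2 (-1.33) and Irf8 (-1.41) lower. At equal depth Klf3 was found in 1.6% and 3.1% of Havcr2-positive cells with and without Pdcd1, so its ratio rests on few cells there. In A0305 the ratios were -2.60 for Klf3 and -3.13 for Myb, and in A0304 that of Klf2 was -0.85, so each of these 3 directions turned in 1 of the hashtags with 10 or 11 Gzmk-positive cells. Against Tcf7-positive cells Prdm1, which encodes Blimp-1 (1.54), and Maf (1.14) were higher, and Bach2, Klf2, Lef1 and Myb (-1.19, with 0.55 in A0304) lower. Among the 94 Tcf7-positive cells that had Pdcd1, several of these differences shrank: the log2 ratio was -0.32 for Klf2, -0.03 for Lef1 and -0.07 for Satb1, and that of S1pr1 turned to 0.38.

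In all, 21 genes were called against both the Tcf7-positive and the Havcr2-positive cells. Both comparisons share the Gzmk-positive cells, and these genes are listed after their values had been seen. In 5 genes the Gzmk-positive cells lay above the Tcf7-positive and below the Havcr2-positive cells (Ccl3, Ifng, Lag3, Prf1, Tnfrsf9), and in 9 the other way (Asap1, Cmah, Emb, Klf2, Lef1, Myb, S1pr1, Slamf6, Ssh2). The call of S1pr1 against the Havcr2-positive cells carries no weight, as stated above. Gzma, Scaf4 and Trim5 were higher than in both, and Cd74, Fos, Nrn1 and Pkp4 lower than in both. For each of the 5 and 9 genes with a place between, the Gzmk-negative cells also lay between the Tcf7-positive and Havcr2-positive cells. Their levels were 49.2 CPM for Klf2, 50.3 for S1pr1, 49.5 for Myb and 316 for Prf1. The Gzmk-positive cells had 48.2, 71.1, 94.8 and 282. The place between is thus not particular to the Gzmk-positive cells.

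**Figure D4:**
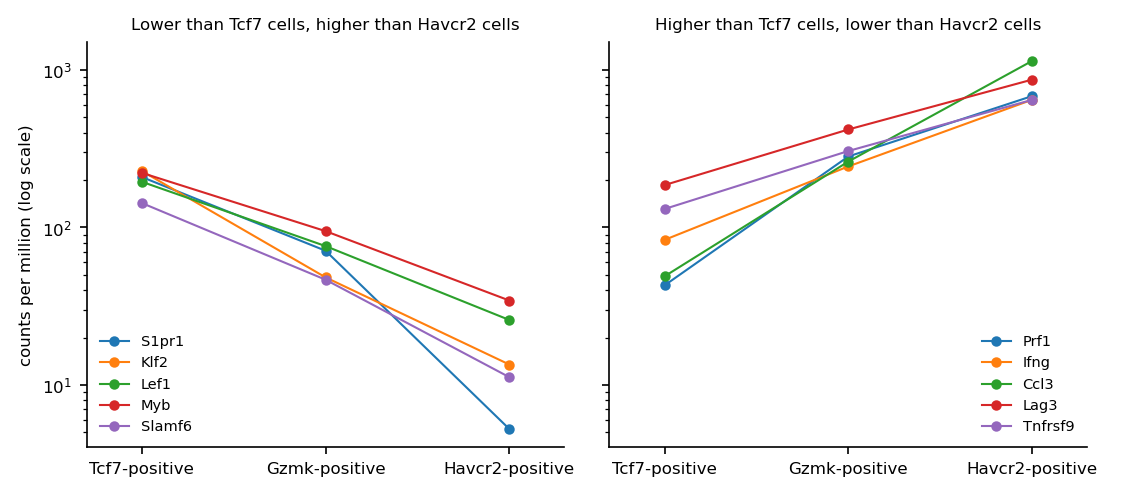
Level of 10 genes (y axis, CPM, log scale) in Tcf7-positive, Gzmk-positive and Havcr2-positive CD8 cells (x axis), each point the sum over a group. In the left panel levels fall from left to right, as S1pr1 from 209 to 71.1 to 5.25, and in the right panel they climb, as Prf1 from 42.9 to 282 to 683. The Gzmk-negative cells are not drawn, and their levels also lay between the outer groups, as 50.3 for S1pr1 and 316 for Prf1.

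Several inhibitory receptors were higher than in the Tcf7-positive cells, and 1 was lower than in the Havcr2-positive cells. Against Tcf7-positive cells 4 of 8 examined genes were higher: Entpd1, the ectoenzyme CD39 (100 against 3.48 CPM, 3.63), Cd38 (1.93), Lag3 (1.15) and Pdcd1, encoding PD-1 (1.05). The Pdcd1 ratio lay at the edge of the call and was 0.97 without cells with myeloid counts. Against the Tcf7-positive cells with Pdcd1, the Lag3 ratio was 0.19, which ended its call, while Cd38 (1.51) stayed called. The Entpd1 ratio was 3.24 there. Against all Tcf7-positive cells Entpd1 passed the filter on detection through the Gzmk-positive cells, so its call carries no weight. Cd38 kept its call in 11 of 14 alternative settings, and its ratio to all Tcf7-positive cells was -1.16 in A0305. Pdcd1 was found in 39.0% of the Gzmk-positive cells (32.5 to 45.8), 18.7% of the Tcf7-positive, 57.9% of the Havcr2-positive and 44.1% of the Gzmk-negative cells. Lag3 stood at 419 CPM against 869 in the Havcr2-positive cells and was lower there (-1.04), the 1 call among 7 examined genes, with 0.33 in A0305. Tnfrsf9, the costimulatory receptor 4-1BB, was higher than in Tcf7-positive cells (1.19, or 0.60 and not called against those with Pdcd1) and lower than in Havcr2-positive cells (-1.07). Tox, a factor of exhausted T cells, was found in 33.9% of the Gzmk-positive, 53.9% of the Havcr2-positive and 23.7% of the Tcf7-positive cells, and was not called against either.

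The difference from the Gzmk-negative cells was small. Of 5508 genes examined, 7 were called higher (0.127%) and 25 lower (0.454%). Gzma and Eomes were the higher genes found in at least 15% of Gzmk-positive cells, and Rrm2, a replication gene, was higher at 1.02. Rrm2 was 0.50 as a mean over cells and kept its call in 7 of 13 alternative settings. Ccl4 (285 against 640 CPM, -1.15), the predicted gene Gm156 (-1.16) and the NK receptor-like gene Klri2 (-1.47) were lower. Klri2 was found at 5 counts in 3.04% of Gzmk-positive cells. It passed the filter on detection through the Gzmk-negative cells, so its call carries no weight. In A0304 the ratios were 0.52 for Klri2 and 0.15 for Ccl4. The log2 ratio of Ccl4 was -0.78 in thinned cells and -0.98 without A0306, both short of the call. Prf1 (-0.16), Gzmb (0.53), Cxcr6 (-0.18), Cxcr3 (0.62) and Pdcd1 (-0.13) were not called. Ccr2 was found in 33.0% of the Gzmk-positive (26.8 to 39.7) and 16.4% of the Gzmk-negative cells (14.4 to 18.5), with a log2 ratio of 0.60.

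Proliferation genes were called higher than in the Tcf7-positive cells. Of 12 proliferation genes examined against Tcf7-positive cells, 6 were higher (Birc5, Ccnb2, Mcm5, Stmn1, Tyms and Ube2c), the median of the 12 being 1.31, although cells with both Mki67 and Top2a had been left out. Against the Tcf7-positive cells with Pdcd1, Ube2c alone of these 6 stayed called (1.07), and Birc5 (0.40), Ccnb2 (0.38), Tyms (0.51), Mcm5 (0.72) and Stmn1 (0.80) fell short. In A0305 the ratios to all Tcf7-positive cells were -0.82 for Ube2c, -1.24 for Tyms and -0.77 for Mcm5. Mcm5 was -0.92 in A0304, while Birc5 and Stmn1 stayed above 0 in the 4 hashtags with at least 10 cells in both groups. Against Havcr2-positive cells 0 of 17 were called. All 14 glycolysis genes examined had a ratio above 0 over Tcf7-positive cells, with a median of 0.76 and 0 calls, and the 16 examined against Havcr2-positive cells had a median of -0.27 with 0 calls. Of the interferon-stimulated genes, Isg20 (1.34) and Ly6a (1.196) were higher than in Tcf7-positive cells among 12 examined (Ly6a 0.92 against those with Pdcd1), and 0 of 13 differed from Havcr2-positive cells. The Isg20 ratio was 3.09 in A0301 and -3.43 in A0304, and without A0301 it was 0.92, short of the call. The immediate-early gene Fos was lower than in the Tcf7-positive (-1.61), Havcr2-positive (-1.09) and Gzmk-negative cells (-1.05). Fos kept these calls in 10 of 14, 8 of 14 and 5 of 13 alternative settings, in that order. In A0305 its ratios went the other way, at 2.02, 1.72 and 1.61. Of 10 ribosomal protein genes 0 were called in these comparisons. Metallothioneins Mt1 (207 against 39.4 CPM, 2.26) and Mt2 (2.16), which bind metal ions, and Fgl2, a secreted fibrinogen-like protein (2.13), were among the 10 highest genes over Tcf7-positive cells.

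The Gzmk-positive cells were not uniform, and Pdcd1 divided them, as it did the Gzmk-negative cells for several of the same genes. Of the 230, 88 had at least 5 Pdcd1 counts (38.3%, 32.0 to 44.9), 113 had 0 (49.1%, 42.5 to 55.8) and 29 lay between. No hashtag had 20 cells in both parts, so no sign condition applied here, and with 5947 genes examined 281 were called higher (4.73%) and 256 lower (4.30%) in the cells with Pdcd1. The cells with Pdcd1 were deeper (median 36092 against 21370 counts). Pdcd1 itself made the division and was not examined.

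Cells without Pdcd1 carried granzyme A and genes of circulation and homing. Gzma stood at 1577 CPM in them against 199 in cells with Pdcd1 (log2 -2.95 for cells with over cells without Pdcd1) and was found at equal depth in 43.7% (33.9 to 53.8) against 9.20% (4.05 to 17.3). Cxcr3 was found in 37.9% against 13.8%, S1pr1 in 23.3% against 5.75%, Itgb7 in 39.8% against 12.6% and Gpr183 in 35.0% against 9.20%. The log2 ratios were -1.94 for Cxcr3, -2.82 for S1pr1, -1.77 for Itgb7 and -2.24 for Gpr183. In the receptor list 5 of 9 examined genes were lower in the cells with Pdcd1, namely Cxcr3, S1pr1, Gpr183, Ccr2 (-1.64) and Cxcr4 (-1.73). The median of the list was -1.64 beside 0.01 over all examined genes. At equal depth Ccr2 was found in 35.9% (26.7 to 46.0) against 26.4% (17.6 to 37.0), with overlapping intervals. Klf3 (-3.21), Lef1 (-1.51) and Klrg1, a receptor of short-lived effector cells (-2.16), followed the same direction. Gbp2 (-1.77), Ifit1 (-1.66) and Ifit3 (-1.84), which interferon induces, were lower as well. At equal depth Gbp2 was found in 38.8% (29.4 to 48.9) against 27.6% (18.5 to 38.2), again with overlapping intervals.

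Cells with Pdcd1 more often had Lag3 and the costimulatory receptors Tnfrsf9 and Tnfrsf4. Of 6 inhibitory receptors examined, 2 were called higher (Lag3 and Entpd1) and 0 lower, with a median of 0.62. The activation-induced list went the other way, with 0 of 18 examined genes higher and 3 lower, the early activation antigen Cd69 (-1.75) and the immediate-early genes Fosb (-1.19) and Jun (-2.65), and a median of -0.30. Lag3 was found in 65.5% (54.6 to 75.4) against 29.1% (20.6 to 38.9), with a log2 ratio of 1.08. Tnfrsf9 was found in 58.6% against 17.5% (log2 1.48), Tnfrsf4, encoding OX40, in 24.1% against 5.83% (2.23), Nrp1, the semaphorin receptor neuropilin 1, in 42.5% against 7.77% (1.70), and the NK receptor gene Klre1 in 31.0% against 11.7% (1.74). Entpd1 (1.27), Klrk1, encoding NKG2D (1.12), Xdh, xanthine dehydrogenase (2.62), and Adam8, a metalloprotease (1.80), were higher. Xdh and Tnfrsf4 were found at 5 counts in 0.885% and 4.42% of cells without Pdcd1. Both passed the filter on detection through the cells with Pdcd1, so their calls carry no weight. At equal depth Entpd1 was found in 25.3% (16.6 to 35.7) against 10.7% (5.45 to 18.3), with overlapping intervals. Prf1 (1.198) went to 0.67 as a mean over cells and Tox (1.05) to 0.55 in thinned cells, both short of the call. Eomes (21.8% against 25.2%), Itga4 (63.2% against 63.1%) and Gzmb (86.2% against 74.8%) had overlapping intervals in the cells with and without Pdcd1.

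The direction for Gzma was seen in the 6 hashtags together, where Gzma had at least 5 counts in 15 of 41 cells without and 2 of 32 cells with Pdcd1, of which A0301 gave 9 of 18 and 0 of 9, and A0306 2 of 12 and 1 of 8. The same division of the Gzmk-negative cells gave Gzma in 14.1% without and 4.46% with Pdcd1, and Cxcr3 in 22.1% and 13.9%. In Havcr2-positive cells it gave Gzma in 9.38% and 3.55% and Cxcr3 in 6.88% and 5.52%. The intervals for Gzma were apart in the Gzmk-negative cells (11.2 to 17.4 and 2.91 to 6.52) and met in the Havcr2-positive cells (5.34 to 14.99 and 2.12 to 5.55).

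**Figure D5:**
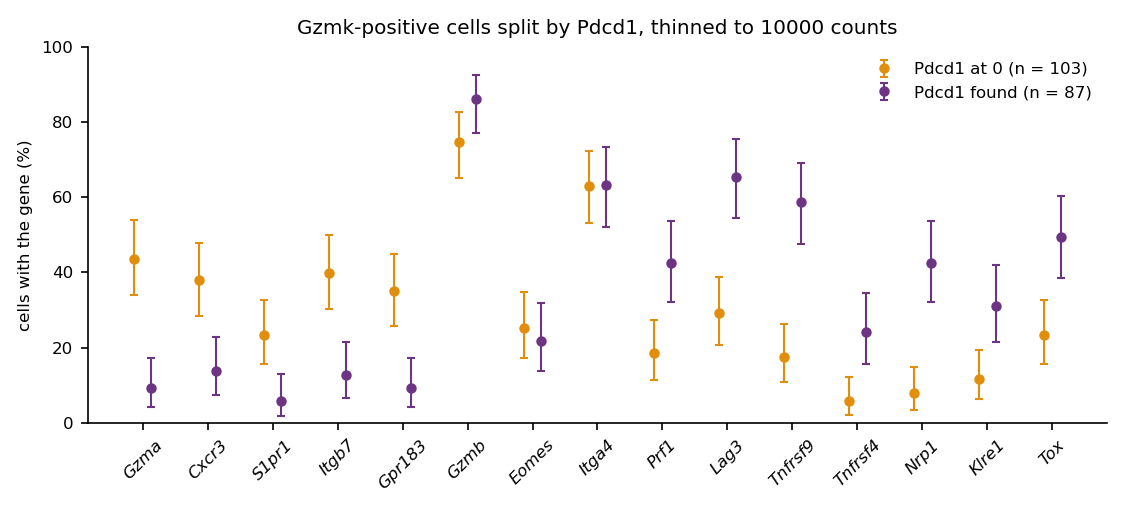
Share of Gzmk-positive cells with each gene at 10000 counts per cell (y axis, percent, exact 95% intervals) in cells with 0 Pdcd1 counts and in cells with at least 5. The 5 genes on the left, Gzma to Gpr183, are more often found without Pdcd1, Gzmb, Eomes and Itga4 overlap, and those from Prf1 to Tox are more often found with it.

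A division by Gzma was chosen because Gzma had differed with Pdcd1 in these same cells, so it describes that association again and adds no support to it. At equal depth 59 Gzmk-positive cells had Gzma and 159 did not. Itgb7 was found in 52.5% of the former and 17.0% of the latter, Cxcr3 in 44.1% and 19.5%, Gpr183 in 47.5% and 16.4%, Ccr2 in 49.2% and 27.0%, Klf3 in 27.1% and 4.40%, and Klrg1 in 23.7% and 1.89%. S1pr1 was found in 22.03% (12.3 to 34.7) and 12.6% (7.86 to 18.8), with overlapping intervals. Pdcd1 was found in 15.3% and 47.8%, Lag3 in 11.9% and 57.9%, Tox in 6.78% and 44.0%, Prf1 in 10.2% and 35.8%, and Cxcr6 in 20.3% and 49.7%. Gzmb (89.8% and 76.1%), Nkg7 (100% and 98.7%) and Ccl5 (98.3% and 92.5%) were common in both. Eomes was found in 22.03% and 20.8%, so Gzma and Eomes, each higher in the Gzmk-positive cells, did not mark the same ones.

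Markers of other cell types were low. The 11 macrophage and monocyte markers summed to 299 CPM in the Gzmk-positive cells (292 in A0301, 251 in A0306) and to 508 to 563 CPM in the other groups. The 10 dendritic cell markers summed to 257 CPM against 515 to 906, with Clec9a, Cd209a and Siglech at 0. By hashtag the dendritic sum in Gzmk-positive cells was 559.7 CPM in A0301, where the Gzmk-negative cells had 640.3, and 115 in A0306, where they had 1362. Cd74, the invariant chain of class II, was lower than in Tcf7-positive cells (-1.06), and this ratio was -0.09 once cells with at least 5 counts of Lyz2, C1qa, C1qb or Apoe were left out (20 of 230 and 57 of 534 cells). After the same removal Cd74 stayed lower than in the Havcr2-positive (-1.70 before, -1.10 after) and Gzmk-negative cells (-1.49 and -1.17). The ratios of the class II genes H2-Aa (-1.86) and H2-Ab1 (-2.41) to Havcr2-positive cells were -1.37 and -1.73 after this removal and no longer called. The 6 melanoma markers summed to 187 CPM against 159 to 225, near equal in the 4 groups. Of the NK markers, Ncr1, Klra8 and Klra4 were at 0, and the sum of 965 CPM was mostly Gzma. Trdc, Sox13 and Il17a, markers of gamma delta T cells, summed to 0.135 CPM, and Cd3d was found in 88.5% and Trac in 92.7% of the Gzmk-positive cells.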

How the data were processed

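Both samples come from 1 capture, an mRNA library and a hashtag library. The tables deposited by the authors hold whole-number counts per barcode, of genes and of hashtags. The submitters' processing notes name GRCm38, R 3.5.3, cutadapt 2.10 and, in versions 2.4.2 and 2.3.4.1, Bowtie2, without roles. Collapsing by molecular identifiers is not stated. The median non-zero value was 7, so a gene was scored as found at 5 counts, and intervals assume independent counts.

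The gene table held 27635 genes, 12016 barcodes and 629041564 counts; 11318 barcodes passed the limits and 11808 were in the hashtag table. A hashtag was called where it raised the log likelihood of a background mixture by at least 3 and no second one did. The members and the gene lists were chosen with earlier results of these data known. Named genes came from 26 lists and, per comparison, were the 10 highest and 10 lowest called genes found in at least 15% of cells of the higher group. No doublet caller was run; barcodes with 2 hashtags, with myeloid counts or of the deepest 5% were left out as alternatives, the first of these added after seeing the data. The comparison was tested on simulated data. Software was matplotlib 3.10.9, scipy 1.17.1, pandas 2.3.3, numpy 2.4.6 and Python 3.11.15. Some genes that the rule would name are not reported here.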

Additional observations from a re-analysis of the deposited data

Results flagged for a closer look

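Hashtags A0307 to A0312 are columns of the hashtag table that the labels do not list. Of the 230 Gzmk-positive cells, 5 were called for 1 of them (2.17%, exact 95% interval 0.710 to 5.00), beside 62 of the 3087 gated CD8 cells (2.01%). The rate of wrong hashtag calls was not estimated, so these calls may be errors. No group was made from these cells.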

How the results depend on the processing

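The number of genes called moved by more than 1.5 times under these settings. Against Tcf7-positive cells, 227 calls became 121 with 20 CPM added, 555 with no filter on detection, 125 among genes found in at least 10% of cells and 445 against Tcf7-positive cells with Pdcd1, where Pdcd1 (-0.79) and S1pr1 (0.38) also changed sign. Against Havcr2-positive cells, 114 became 52, 257 and 54 under the first 3 of these, 193 against Havcr2-positive cells with Gzmk and 61 when hashtags with at least 10 cells had to share the sign, a setting added after seeing the data. Against Gzmk-negative cells, 32 became 10, 203 and 10, and also 53 in thinned cells and 51 with 1 CPM added. Between cells with and without Pdcd1, 537 became 182, 1780 and 219. The other settings kept each count within 1.5 times, leaving out A0301 or A0306 included (272 to 289, 128 to 129 and 31 to 36 calls). For 154 called results of named or listed genes, recomputed 1947 times in all, 1741 values stayed called in the same direction, 204 fell short and 2 changed sign. The number of Gzmk-positive cells ran from 163 with gates at 10 counts to 338 with cycling cells kept; the 163 held 130 of the 230 cells, and the 262 with gates at 3 counts held 191.

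Groups of 230 cells of 1 capture limit every ratio, and hashtags with 4 to 11 Gzmk-positive cells give little weight to a sign. Genotype was not tested. No paired analysis was possible because the 2 samples are 2 libraries of 1 capture and no test was run.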
